A study of Mus musculus with 10 samples.

Results

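Aire, Fezf2, Relb and Prdm1 are transcription regulators known from the medullary epithelium of the thymus, and they were taken as 4 genes out of the 43432 gene identifiers counted in 10 RNA-seq libraries. They were chosen by symbol, not by a measured value, and all 4 were found by Ensembl identifier in a GRCm38 annotation and passed the filter on low counts. The cells compared were tuft cells, chemosensory epithelial cells marked by the cytokine gene Il25, from the thymus (4 libraries) and from the small intestine (SI, 3 libraries), and epithelium of the small intestine without tuft cells (3 libraries). Every animal was a naïve male of 12 weeks, of the strain C57BL6.Il25(Flare25/Flare25), so both tuft cell groups and the SI epithelium came from mice with the Flare25 reporter of Il25 on both alleles, and no mouse without the reporter was included. Living EPCAM+ CD45- cells were sorted, Flare25+ for both tuft cell groups and Flare25- for SI epithelium. Each library held the cells of 1 mouse, with 1350 to 1900 cells for thymic tuft cells, 35000 to 36000 for SI tuft cells and 52000 to 57000 for SI epithelium. Thymic cells were freed with enzymes and a density gradient and intestinal cells with DTT and EDTA, so organ, dissociation and cell number changed together and cannot be told apart. The authors discarded 1 SI tuft and 1 SI epithelium library for quality.

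Medullary thymic epithelial cells show developing T cells a broad sample of the body's own proteins, so that self-reactive T cells can be removed or diverted. Aire and Fezf2 each switch on part of these tissue-restricted antigen genes, Aire as a chromatin reader that releases paused polymerase and Fezf2 as a zinc finger factor also known from the forebrain. Relb is a subunit of the alternative NF-kB pathway, which RANK, CD40 and the lymphotoxin beta receptor drive in these cells and without which the mouse medulla does not mature. Prdm1 encodes Blimp-1, a repressor known from plasma cells, T cells and the maturing gut epithelium, which is also found in thymic epithelium. Thymic tuft cells are themselves a cell type of the medulla.

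Library sizes ran from 38659882 to 73574745 counts, with 18889 to 23179 genes detected. Levels are given as CPM, the count of a gene per 1000000 counts of its library, and 3 counts equalled 0.0408 to 0.0776 CPM. Mitochondrial genes took 4.38% to 5.97% of counts in thymic tuft cells, 24.1% to 33.5% in SI tuft cells and 18.6% to 23.7% in SI epithelium. CPM use the total count, whereas fitted log2 fold changes use TMM scaling (trimmed mean of M values), whose factors were 1.33 to 1.43 in thymic tuft, 0.661 to 0.784 in SI tuft and 0.883 to 0.900 in SI epithelium libraries. The fitted changes of thymic tuft cells are therefore smaller than ratios of CPM. The median over all 19281 genes tested was 0.12 for thymic over SI tuft cells, -0.10 for SI tuft cells over SI epithelium and 0.15 for thymic tuft cells over SI epithelium, and 1.02, -0.38 and 0.77 with total counts only, an alternative chosen after seeing the data. Changes are relative to these shifts.

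The 3 SI epithelium libraries also held traces of thymic libraries. Over 282 genes restricted to the thymic libraries, with the 4 regulators left out, the counts of SI epithelium libraries 1, 2 and 3 followed those of thymic tuft libraries 3, 2 and 1. Where the thymic partner held 1000 counts or more of a gene, the median was 0.556% of the partner over 183 genes, 0.554% over 140 genes and 0.561% over 144 genes. In the other direction the share was 0.876% to 0.948% of SI epithelium counts over 6 genes. These 6 genes were chosen to be nearly absent from thymic tuft library 4, so they cannot measure a share in that library. No SI epithelium library followed thymic tuft library 4, and at most 2 counts in the SI tuft libraries together were allowed when these genes were chosen. These shares touch every low level in SI epithelium given below.

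The starts of Aire and Fezf2 are shown because these genes had nearly the same profile across the 10 libraries. That likeness rests in part on the shared counts in SI epithelium. The windows come from RefSeq (build GRCm38.p6), run 5′ to 3′ on the minus strand of both genes and end before any base that GENCODE M21 annotates as an exon of the gene. The Aire window, chr10:78043611-78043860, ends at the base before the first exon. The Fezf2 window, chr14:12345960-12346115, lies between exons of a longer annotated transcript and stops 94 bases short of the RefSeq start. Capitals mark matches to a TATA box (TATAAA) and a CCAAT box (CCAAT, here on the opposite strand) in Aire, and to the kB site, the motif bound by NF-kB dimers, in Fezf2.
Aire: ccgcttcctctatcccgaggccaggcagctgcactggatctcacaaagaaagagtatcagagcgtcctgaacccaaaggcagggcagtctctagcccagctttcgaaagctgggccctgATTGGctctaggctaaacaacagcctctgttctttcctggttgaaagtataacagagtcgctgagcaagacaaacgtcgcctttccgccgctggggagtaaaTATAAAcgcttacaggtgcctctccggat
Fezf2: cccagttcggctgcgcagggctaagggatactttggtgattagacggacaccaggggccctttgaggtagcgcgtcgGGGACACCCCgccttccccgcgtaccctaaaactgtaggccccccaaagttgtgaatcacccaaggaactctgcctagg

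Counted from the RefSeq start, the TATA match of Aire lay at -29 to -24 and its CCAAT match at -131 to -127. The kB match of Fezf2 lay at -173 to -164 and read as a match on both strands, so it is 1 site. A GC box (GGGCGG) at -85 to -80 of Fezf2 lies in the stretch not printed. Both strands of the 250 bases before the start were searched for these 4 motifs. Of 32851 such windows in the table, 12.4% held a TATA match, 33.8% a CCAAT match, 32.7% a GC box and 7.25% a kB match. A match is a description of letters and not a bound site. In the 250 bases before the start of Prdm1 the search found a CCAAT match at -31 to -27, and Relb had no entry in the table.

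Thymic and SI tuft cells passed the same gate in both organs, and comparing them set Aire and Fezf2 apart by more than 3 orders of magnitude in CPM. Relb and Prdm1 rose as well, and both were also measurable in SI tuft cells. All 4 genes were called higher in thymic tuft cells (edgeR, quasi-likelihood) at an adjusted p (Benjamini-Hochberg over all genes) below 0.05, where 28.5% of the 19281 genes tested were called higher and 51.6% either way. All 4 also had every thymic library above every SI tuft library, as did 41.5% of all genes tested, and 53.2% had groups apart in either direction. Since less RNA per cell and fewer cells of a type cannot be told apart in sorted bulk samples, each level is that of the sorted population.

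Aire (ENSMUSG00000000731, GRCm38 chromosome 10, 78030022 to 78043610) had 341, 333, 350 and 210 CPM in thymic tuft libraries 1 to 4, against 0.128, 0.0427 and 0.161 CPM in SI tuft libraries 2, 3 and 4. The SI tuft levels came from 8, 2 and 8 counts, and the lowest of the 4 thymic libraries lay far above them. The mean was 308 ± 66.1 CPM (SD, n = 4) in thymic tuft cells and 0.111 ± 0.0611 CPM (n = 3) in SI tuft cells. Summed over libraries, the CPM ratio was 2749, with a 95% interval of 1739 to 4639 that covers counting error only. Aire rose by a log2 fold change of 10.48 (SE 0.43, edgeR adjusted p = 7.14e-09). A stretch of 67 exon bases is shared with Dnmt3l, a gene on the opposite strand that encodes a cofactor of DNA methyltransferases, and the library kit marks no strand. Dnmt3l itself had 2.30 to 12.0 CPM in thymic tuft libraries and no count in SI tuft cells, far below Aire.

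Fezf2 (ENSMUSG00000021743, chromosome 14, 12342094 to 12348189) had 430, 408, 411 and 318 CPM in thymic tuft cells, against 0, 0.0854 and 0.0201 CPM in SI tuft cells. Only 5 counts were found in the 3 SI tuft libraries together, 4 of them in library 3. Levels averaged 392 ± 50.2 CPM (n = 4) in thymic tuft cells and 0.0352 ± 0.0446 CPM (n = 3) in SI tuft cells. The summed CPM ratio of 12500.7 had a wide counting interval of 5356 to 38501, and the fitted log2 fold change of 12.61 (SE 0.44, edgeR adjusted p = 2.73e-09) depends on the prior count of the fit. With 1 library left out at a time it ran from 11.99 to 14.20.

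Relb (ENSMUSG00000002983, chromosome 7, 19606217 to 19629438) had 86.8, 65.4, 70.7 and 44.1 CPM in thymic tuft cells, against 10.4, 20.4 and 12.3 CPM in SI tuft cells. The groups did not overlap, and thymic library 4 and SI tuft library 3 were the closest pair. Means were 66.8 ± 17.6 CPM in thymic tuft cells and 14.4 ± 5.31 CPM in SI tuft cells. Relb rose by 1.33 on the log2 scale (SE 0.28, edgeR adjusted p = 0.00175), and by 2.22 with total counts only.

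Prdm1 (ENSMUSG00000038151, chromosome 10, 44437177 to 44528501) was the lowest of the 4 genes in thymic tuft cells, at 29.7, 34.5, 16.6 and 25.9 CPM, against 3.40, 2.31 and 6.68 CPM in SI tuft cells. It averaged 26.7 ± 7.59 CPM in thymic tuft cells and 4.13 ± 2.28 CPM in SI tuft cells. The fitted rise was 1.79 (SE 0.46, edgeR adjusted p = 0.00682), and 2.69 with total counts only. Unlike the other 3 genes, Prdm1 was lowest in thymic library 3 and not in library 4.

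**Figure D1:**
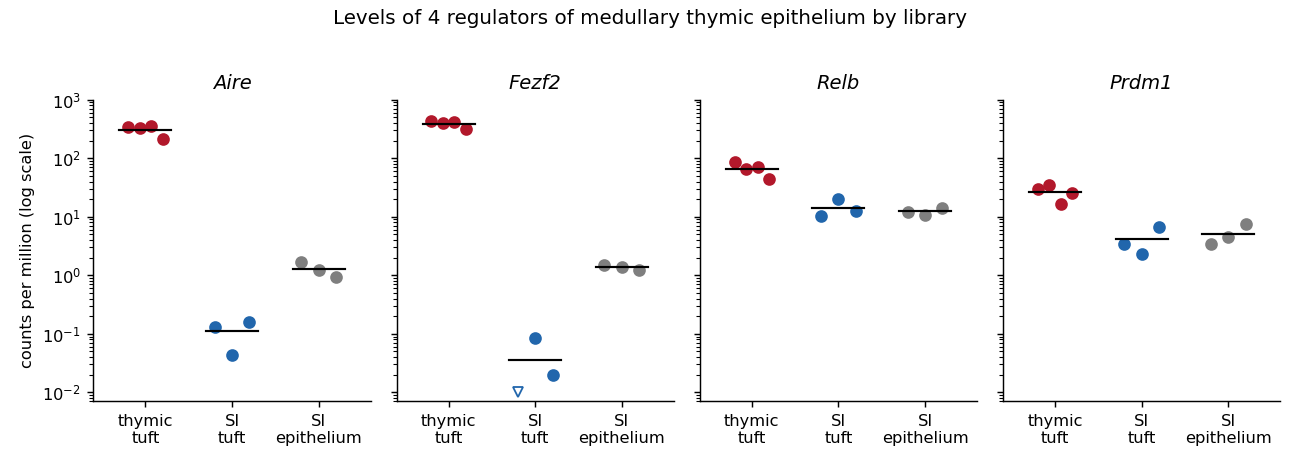
CPM of Aire, Fezf2, Relb and Prdm1 on a log axis for 4 thymic tuft, 3 SI tuft and 3 SI epithelium libraries; each point is 1 library, the line is the group mean, and the open triangle is a library with no count, drawn at the bottom. Every thymic library lies above all SI libraries for the 4 genes, and the SI tuft points of Aire and Fezf2 lie below those of SI epithelium, whose means are 1.30 and 1.37 CPM.

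Within thymic tuft cells the 4 genes were ordered by CPM per kilobase of exon, which allows levels of different genes to be compared. Aire stood at 159 ± 34.1, Fezf2 at 129 ± 16.5, Relb at 25.6 ± 6.76 and Prdm1 at 4.97 ± 1.41 (SD, n = 4 each). Aire was above Fezf2 in each of the 4 libraries, yet their ranges of 108 to 180 and 104 to 141 overlapped, and their difference within libraries was not tested. Relb and Prdm1 each lay clear of the gene above. The ratio of Fezf2 to Aire CPM was 1.26, 1.22 and 1.18 in thymic libraries 1 to 3 and 1.51 in library 4. Relb had 0.255, 0.196, 0.202 and 0.210 times the CPM of Aire in libraries 1 to 4. Relative to its mean, the spread between thymic libraries was smallest for Fezf2 (coefficient of variation 0.128), followed by Aire (0.214), Relb (0.264) and Prdm1 (0.285). Thymic library 4, made from 1350 cells, was the lowest for Aire, Fezf2 and Relb. Without it the log2 fold changes over SI tuft cells were 10.62, 12.69, 1.48 and 1.80 for Aire, Fezf2, Relb and Prdm1.

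SI tuft cells were set against the epithelium of the same organ to ask what marks tuft cells there. By the counts as deposited, Aire and Fezf2 fell and Relb and Prdm1 did not pass the test. In this comparison 11.4% of genes tested were called lower and 22.3% either way. Aire had 0.128, 0.0427 and 0.161 CPM in SI tuft cells, against 1.71, 1.24 and 0.951 CPM in SI epithelium (log2 fold change -3.21, SE 0.40, edgeR adjusted p = 0.000112). Fezf2 had 0 to 0.0854 CPM in SI tuft cells, against 1.48, 1.39 and 1.25 CPM in SI epithelium (-5.07, SE 0.45, edgeR adjusted p = 6.43e-06). Every SI tuft library lay below every SI epithelium library for either gene, as for 36.9% of genes tested (52.5% in either direction).

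The calls for Aire and Fezf2 did not hold once the shared counts were taken off. Aire counts in SI epithelium libraries 1, 2 and 3 were 0.576%, 0.505% and 0.482% of those in thymic partners 3, 2 and 1. Fezf2 counts were 0.423%, 0.463% and 0.502% of the same partners. Both genes thus lay close to the median of 0.554% to 0.561% for other thymus-restricted genes and inside their 5th to 95th percentile, which ran from 0.272% to 1.71%, 0.241% to 1.36% and 0.268% to 2.98%. Once the partner's share was subtracted, the 3 SI epithelium libraries held 4, 0 and 0 counts of Aire and no count of Fezf2. The log2 fold changes then turned to 2.55 for Aire and 4.21 for Fezf2, and neither passed the test (edgeR adjusted p = 0.059 and 0.0618). The median share was subtracted down to 0 at most, so any gene below that median was bound to reach 0. The turned signs rest on 18 and 5 counts in SI tuft cells and on the prior count. They show no direction.

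**Figure D2:**
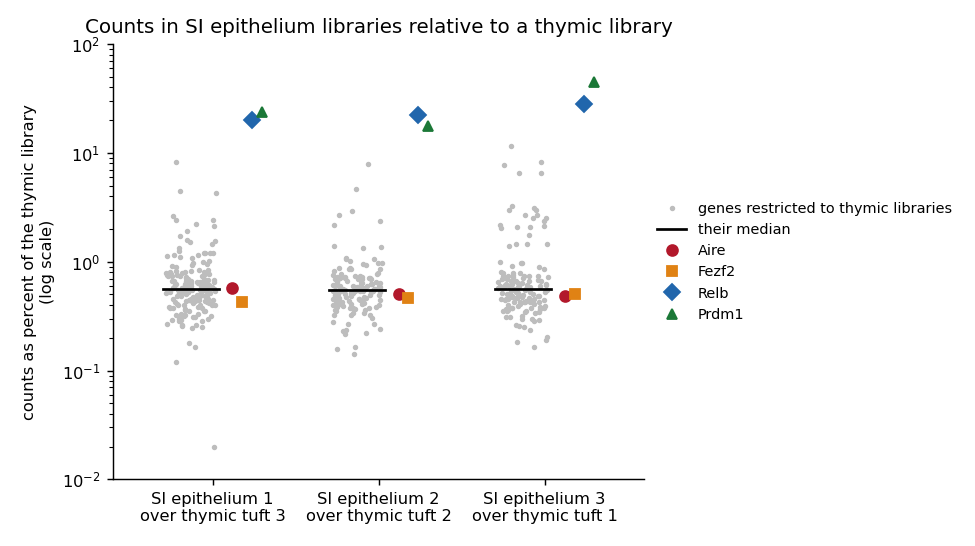
Counts in each SI epithelium library as a percentage of counts in its thymic tuft partner, on a log axis; grey points are thymus-restricted genes with at least 1000 counts in the partner (a gene with no count is drawn at the bottom), the line is their median, and coloured symbols are Aire, Fezf2, Relb and Prdm1. Aire and Fezf2 lie at 0.423% to 0.576%, among the grey points, and Relb and Prdm1 at 17.6% to 44.4%, above them.

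Relb and Prdm1 stood clear of that share. Their SI epithelium counts were 20.2% to 28.1% of the thymic partner for Relb and 17.6% to 44.4% for Prdm1. Relb had 10.4, 20.4 and 12.3 CPM in SI tuft cells and 12.2, 10.7 and 14.1 CPM in SI epithelium, groups that overlapped (log2 fold change 0.48, SE 0.29, edgeR adjusted p = 0.261). Prdm1 had 3.40, 2.31 and 6.68 CPM in SI tuft cells and 3.38, 4.49 and 7.64 CPM in SI epithelium (-0.04, SE 0.47, edgeR adjusted p = 0.973). A p above the threshold does not show that these levels were alike.

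Thymic tuft cells were also compared with SI epithelium, where organ and cell type differ together. This comparison shares its libraries with the others and is no separate support for them. All 4 genes were called higher, as were 28.6% of genes tested (50.9% either way). For all 4 every thymic library lay above every SI epithelium library, as for 38.4% of genes tested (54.7% in either direction). Aire averaged 308 ± 66.1 CPM in thymic tuft cells and 1.30 ± 0.384 CPM in SI epithelium (log2 fold change 7.27, SE 0.36, edgeR adjusted p = 2.24e-08). Fezf2 averaged 392 ± 50.2 CPM in thymic tuft cells and 1.37 ± 0.116 CPM in SI epithelium (7.53, SE 0.32, edgeR adjusted p = 7.45e-09). After the shared counts were subtracted both fitted changes grew, to 13.10 and 16.89, values that depend on the prior count because almost no count is left in SI epithelium. Relb averaged 66.8 ± 17.6 CPM in thymic tuft cells and 12.3 ± 1.72 CPM in SI epithelium (1.81, SE 0.28, edgeR adjusted p = 0.00021, and 2.44 with total counts only). Prdm1 averaged 26.7 ± 7.59 CPM in thymic tuft cells and 5.17 ± 2.21 CPM in SI epithelium (1.75, SE 0.46, edgeR adjusted p = 0.0077, and 2.37 with total counts only).

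**Figure D3:**
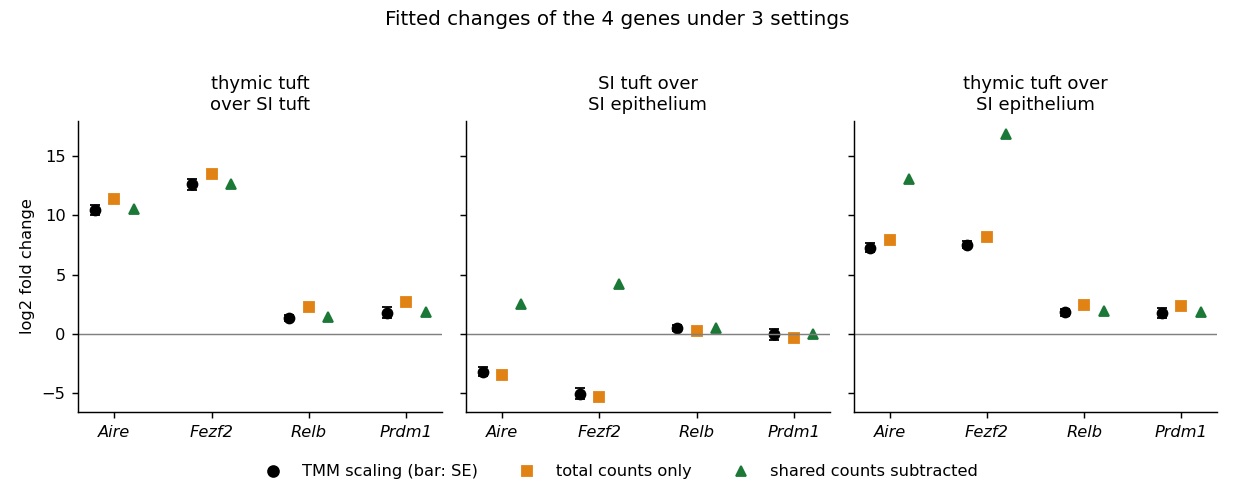
Fitted log2 fold change of each gene in the 3 comparisons with TMM scaling (black, bars are SE), with total counts only (orange squares) and after subtraction of shared counts (green triangles). In SI tuft cells over SI epithelium, Aire and Fezf2 turn from -3.21 and -5.07 to 2.55 and 4.21 after subtraction, while Relb and Prdm1 are then at 0.50 and -0.03. The turned values of Aire and Fezf2 depend on the prior count, because almost no count is left, and show no direction.

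The genes of NF-kB signalling around Relb were higher in thymic than in SI tuft cells for most of the pathway. Of 30 genes listed from ligands to inhibitors, 28 passed the filter, and 22 were called higher and 4 lower in thymic tuft cells. Over all genes tested 28.5% were called higher and 23.1% lower. The median log2 fold change was 1.66 against 0.12 for all genes tested. Cd40 and Tnfsf11 had no count in SI tuft cells and passed the filter through the thymic libraries, so these 2 genes are no support of a direction. The same limit applies to Lta, which lay far below thymic tuft cells in both SI groups (log2 fold changes of 6.04 over SI tuft cells and 6.17 over SI epithelium). With total counts only the split was 24 higher and 1 lower. It was 22 and 4 without thymic library 4 and also after subtraction of shared counts. Against SI epithelium 23 of the 28 were called higher and 1 lower in thymic tuft cells (median 1.64 against 0.15), where 28.6% of genes tested were higher and 22.3% lower. Cd40, Tnfsf11 and Lta are no support of a direction here either, and Tnfsf11 had no count in SI epithelium. Between SI tuft cells and SI epithelium, 6 were called higher and 7 lower in SI tuft cells (median -0.04 against -0.10), where 10.9% of genes tested were higher and 11.4% lower.

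Among the other subunits of the Rel family, 4 of 4 were called higher in thymic tuft cells. Nfkb2 encodes p100, the precursor of the p52 subunit that pairs with RelB, and had 172 to 226 CPM in thymic tuft cells, against 14.2 to 17.6 CPM in SI tuft cells and 37.8 to 46.0 CPM in SI epithelium. Its log2 fold change over SI tuft cells was 2.65 (SE 0.19, edgeR adjusted p = 3.68e-07), and SI tuft cells over SI epithelium gave -1.07 (SE 0.19, edgeR adjusted p = 0.00147). Rel, which encodes c-Rel, had 122 to 155 CPM in thymic tuft cells against 2.99 to 6.38 CPM in SI tuft cells (4.08, SE 0.27). Nfkb1 had 163 to 225 CPM against 15.2 to 28.2 CPM in the same groups (2.09, SE 0.21), and Rela had 161 to 223 CPM against 34.9 to 42.9 CPM (1.36, SE 0.20). The changes of Relb and Rela were thus of like size, and those of the other 3 subunits were larger.

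The receptors divided, with 3 of 4 higher and 1 lower in thymic tuft cells. Tnfrsf11a, which encodes RANK, had 97.0 to 282 CPM in thymic tuft cells and 16.8 to 36.3 CPM in SI tuft cells (log2 fold change 2.00, SE 0.34, edgeR adjusted p = 0.000438). Cd40 had 38.0 to 60.7 CPM in thymic tuft cells and no count in SI tuft cells, at least 2540-fold higher when 3 counts over the group are taken as the floor. Tnfrsf11b, which encodes the decoy receptor of the RANK ligand, had 29.1 to 101 CPM in thymic tuft cells and at most 0.624 CPM in SI tuft cells. Ltbr, the lymphotoxin beta receptor gene, went the other way at 44.5 to 71.9 CPM in thymic tuft cells and 61.9 to 79.6 CPM in SI tuft cells (-1.24, SE 0.22, edgeR adjusted p = 0.000521), and that call was lost with total counts only (-0.34, adjusted p = 0.197). Of the ligands, Ltb was lower in thymic tuft cells (0.931 to 8.89 CPM, against 15.6 to 26.2 CPM in SI tuft cells) and Lta was higher (4.55 to 15.1 CPM, against at most 0.149 CPM).

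Of 11 adaptors and kinases, 9 were called higher and 1 lower in thymic tuft cells. Traf1 had 59.5 to 118 CPM in thymic tuft cells and 1.69 to 3.06 CPM in SI tuft cells (log2 fold change 4.39, SE 0.42). Traf3, whose product holds the alternative pathway in check by promoting the breakdown of the kinase NIK, had 111 to 155 CPM in thymic tuft cells and 13.3 to 17.7 CPM in SI tuft cells (2.26, SE 0.20). Map3k14, which encodes NIK, rose by 1.41 (SE 0.30, edgeR adjusted p = 0.00197). Traf5 ran from 6.83 to 73.4 CPM in thymic tuft cells, against 1.39 to 3.21 CPM in SI tuft cells (2.66, SE 0.79, edgeR adjusted p = 0.0139), and its call ended in 4 settings, among them the removal of thymic library 3 (highest adjusted p = 0.0602). Chuk, the gene of the kinase IKK-alpha, was called lower (-1.07, SE 0.19), which was lost with total counts only (-0.16, adjusted p = 0.496).

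Of 6 inhibitors and feedback regulators, 4 were called higher and 1 lower. Nfkbie, which encodes IkB-epsilon, had 69.6 to 232 CPM in thymic tuft cells and 0.235 to 0.483 CPM in SI tuft cells (log2 fold change 7.52, SE 0.56, edgeR adjusted p = 4.60e-07). Tnfaip3, which encodes the enzyme A20, had 257 to 341 CPM in thymic tuft cells and 45.9 to 52.7 CPM in SI tuft cells (1.64, SE 0.18). Bcl3 fell by 0.63 (SE 0.17, edgeR adjusted p = 0.00891) but stood at 0.25 with total counts only, and 3 other settings also ended the call. Traf5, Ikbkg, Nfkb2, Nfkbib and Bcl3 share part of their exon bases with a gene on the opposite strand, so reads within the shared bases cannot be told from its reads.

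**Figure D4:**
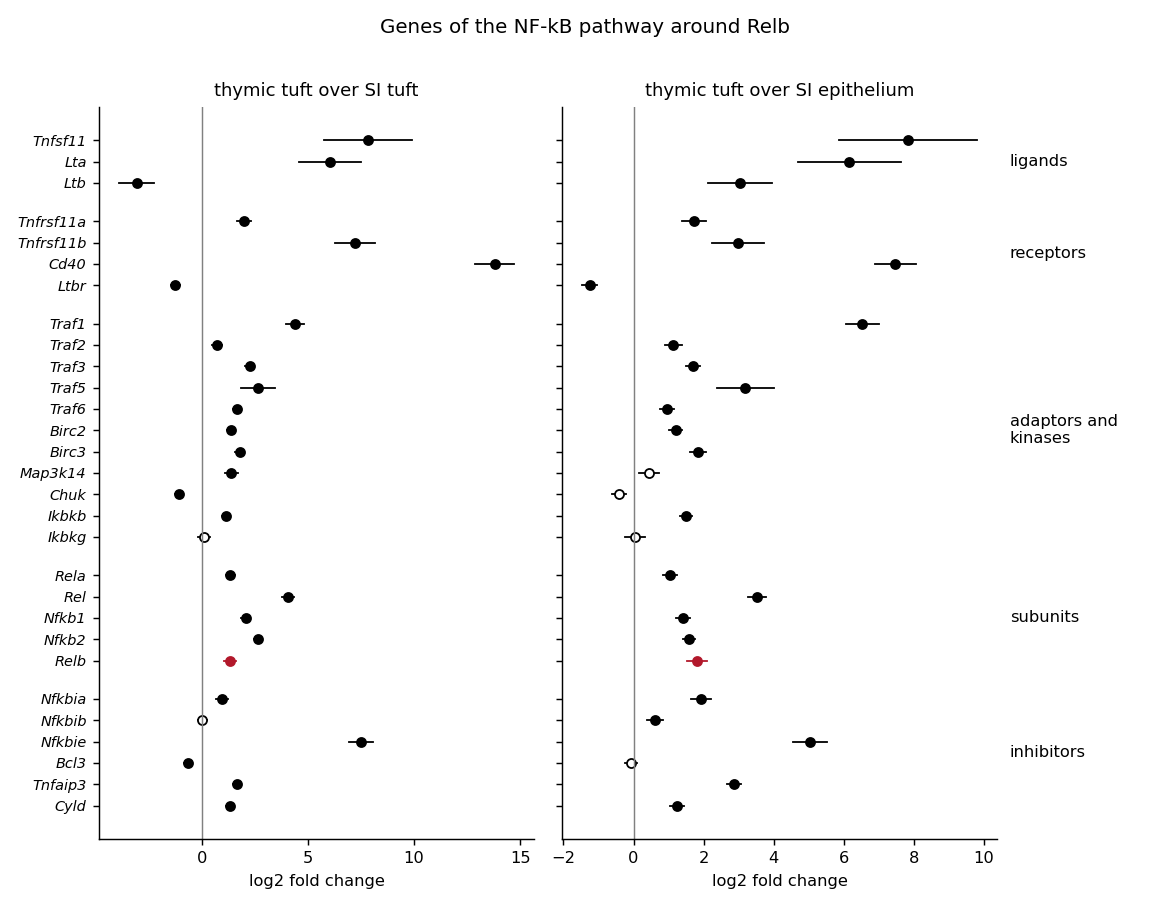
Fitted log2 fold changes of the tested NF-kB pathway genes in thymic tuft cells over SI tuft cells (left) and over SI epithelium (right), grouped by role; filled points passed the test, open points did not, bars are SE, and Relb is red. In the left panel 22 of the 28 genes beside Relb are filled and above 0, and Cd40 and the RANK ligand gene Tnfsf11, with no count in SI tuft cells, have fitted values that depend on the prior count.

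Genes related to Aire by protein family moved in different directions. Of the other 4 genes with a SAND domain, Sp140 had 17.0 to 22.3 CPM in thymic tuft cells, 2.05 to 3.20 CPM in SI tuft cells and 0.381 to 0.879 CPM in SI epithelium. It rose by 1.99 (SE 0.46, edgeR adjusted p = 0.00327) over SI tuft cells. Both Sp140 and Sp110 share exon bases with a gene on the opposite strand. Sp110 rose by 1.12 (edgeR adjusted p = 0.0186, with a highest value of 0.0694 when 1 SI tuft library was left out), Sp100 did not pass the test (0.16) and Deaf1 was called lower (-1.21, lost with total counts only at adjusted p = 0.446). The Sp100 family has close copies in the mouse genome between which reads could be split.

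For 16 genes of proteins reported to act with Aire, 2 were called higher in thymic than in SI tuft cells, 5 lower and 9 neither. Over all genes tested 28.5% were called higher, 23.1% lower and 51.6% either way, so the number called is no result about this list. The median log2 fold change was -0.18 against 0.12 for all genes tested. The direction of this list depended on the scaling, since 9 were called higher and 2 lower with total counts only. The counts over all genes in that setting are given at the end. Sirt1, a deacetylase that acts on Aire and whose gene shares 65 exon bases with an antisense RNA gene, had 131 to 291 CPM in thymic tuft cells and 17.5 to 20.5 CPM in SI tuft cells (2.52, SE 0.27, edgeR adjusted p = 9.80e-06). Top2a, a topoisomerase of dividing cells, had 9.77 to 38.1 CPM in thymic tuft cells and 56.7 to 64.2 CPM in SI tuft cells (-2.43, SE 0.39, edgeR adjusted p = 0.000266). Hipk2, a kinase that acts on Aire, had 201 to 368 CPM in thymic tuft cells and 433 to 606 CPM in SI tuft cells (-1.71, SE 0.20).

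Among self-antigen genes known to need Aire in mouse medullary epithelium, 6 of 7 were found and 4 of them passed the filter, each called higher in thymic than in SI tuft cells. Since they passed it through the thymic libraries, this count is no support of a direction. Chrna1, the muscle acetylcholine receptor subunit that is a target in myasthenia gravis, had 8.56 to 33.8 CPM in thymic tuft cells and at most 0.112 CPM in SI tuft cells. Muc6, a gastric mucin gene, had 11.2 to 18.9 CPM in thymic tuft cells and 1.05 to 3.48 CPM in SI tuft cells (1.95, SE 0.50, edgeR adjusted p = 0.00634). Ins2, an insulin gene, ran from 0.884 to 9.23 CPM in thymic tuft libraries and had no count in SI tuft cells.

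Fezf1, the paralogue of Fezf2, was also highest in thymic tuft cells. It had 22.4 to 64.3 CPM in thymic tuft cells, at most 0.145 CPM in SI tuft cells and at most 0.420 CPM in SI epithelium (log2 fold change over SI tuft cells 8.78, SE 1.22, edgeR adjusted p = 8.53e-05). Chd4, the remodeller that works with Fezf2 in mouse medullary epithelium, had 365 to 410 CPM in thymic tuft cells and 246 to 391 CPM in SI tuft cells. Its fitted change of -0.63 (SE 0.14, edgeR adjusted p = 0.00323) turned to 0.25 with total counts only.

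Genes of the Prdm family were called in both directions. Of the 14 relatives of Prdm1 in the files 10 were tested, with 4 called higher and 3 lower in thymic than in SI tuft cells. Over all genes tested 28.5% were called higher and 23.1% lower, so these counts are no result about the family. Prdm11 had 28.1 to 56.4 CPM in thymic tuft cells and 0.684 to 1.39 CPM in SI tuft cells (4.38, SE 0.43). Mecom, a regulator of blood stem cells with an antisense gene across 81 exon bases, had 21.1 to 37.2 CPM in thymic tuft cells and 2.03 to 4.57 CPM in SI tuft cells (2.32, SE 0.39). Prdm16, known from brown fat, had 1.22 to 5.45 CPM in thymic tuft cells and 24.4 to 36.8 CPM in SI tuft cells (-4.07, SE 0.42). Prdm9, which places meiotic recombination sites, had 0.252 to 1.76 CPM in thymic tuft cells and 5.94 to 10.3 CPM in SI tuft cells (-3.74, SE 0.56).

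Of 6 genes that Blimp-1 represses in B cells and plasma cells, 3 were called higher and 1 lower in thymic than in SI tuft cells. Over all genes tested 28.5% were called higher, 23.1% lower and 51.6% either way, so the number called is no result about these 6 genes. Prdm1 was also higher in these libraries, and its effect on the 6 genes was not tested. Ciita, the master regulator of MHC class II genes, which shares 329 exon bases with Dexi on the opposite strand, had 34.3 to 88.1 CPM in thymic tuft cells and at most 0.980 CPM in SI tuft cells (log2 fold change 5.96, SE 0.91). Myc had 202 to 331 CPM in thymic tuft cells and 24.1 to 31.4 CPM in SI tuft cells (2.50, SE 0.22), and Bcl6 rose by 1.54 (SE 0.34). Id3 fell, with 30.4 to 49.2 CPM in thymic tuft cells and 66.7 to 82.9 CPM in SI tuft cells (-1.87, SE 0.21).

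Markers of the mature medulla were described in the same libraries. Of 18 listed genes 17 were tested, and 14 were called higher and 1 lower in thymic than in SI tuft cells, where 28.5% of all genes tested were called higher. Their median log2 fold change was 7.24, against 0.12 for all genes tested. As 4 of the 17 had no count in SI tuft cells and passed the filter through other libraries, this count is no support of a direction. Cd80, a costimulatory molecule of mature medullary cells, had 74.5 to 109 CPM in thymic tuft cells and no count in SI tuft cells (at least 5152-fold higher by the floor of 3 counts over the group). The basal keratin gene Krt5 had 775 to 951 CPM in thymic tuft cells and at most 0.257 CPM in SI tuft cells. The class II gene H2-Aa had 1538 to 1898 CPM in thymic tuft cells and 0.598 to 2.52 CPM in SI tuft cells. Cldn3, a tight junction gene, was lower (57.0 to 123 CPM, against 239 to 304 CPM), and the chemokine gene Ccl21a of immature medullary cells reached only 0.0977 CPM in thymic tuft cells.

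Of 12 tuft cell markers, 12 were called higher in thymic tuft cells than in SI epithelium, where 28.6% of genes tested were called higher. Il25, whose reporter set the gate, is 1 of the 12, so its call was fixed by the sort. Against SI tuft cells 11 of the 12 were called lower, where 23.1% of genes tested were called lower. With total counts only 6 were lower and 1 higher, and the counts over all genes in that setting are given at the end. The 12 markers summed to 8592 to 9462 CPM in thymic tuft cells, 19302 to 23331 CPM in SI tuft cells and 200 to 386 CPM in SI epithelium. The largest falls from SI tuft cells were those of Sh2d6 (log2 fold change -3.40), Trpm5 (-2.20) and Gfi1b (-1.96). Pou2f3, the factor that tuft cells require, was unlike most of the list. It had 637 to 699 CPM in thymic tuft cells, against 452 to 628 CPM in SI tuft cells and 10.5 to 13.7 CPM in SI epithelium. Its change over SI tuft cells ran from -0.61 to 0.40 over the settings. Of 8 cortical markers, Foxn1, the factor of all thymic epithelium, had 190 to 275 CPM in thymic tuft cells and at most 0.0161 CPM in SI tuft cells. Psmb11, the proteasome subunit gene that defines cortical cells, had 0.938 to 5.45 CPM in thymic tuft cells and Prss16, another cortical gene, 4.27 to 50.1 CPM. There Cxcl12 had 12.9 to 46.8 CPM (7.67 over SI tuft cells) and Ctsl 279 to 456 CPM. Ccl25 (279 to 485 CPM) and Krt8 (392 to 716 CPM) were called lower than in SI tuft cells, Ccl25 not with total counts only. The 8 markers summed to 1230 to 1811 CPM in thymic and 1170 to 1508 CPM in SI tuft cells (median log2 fold change 3.73). The gate took reporter-positive epithelium without a second tuft cell marker. How much of the Aire, Fezf2, Relb or Prdm1 level came from medullary cells other than tuft cells was not tested.

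Markers of blood cells were also examined, because some of those cells express Aire, Relb or Prdm1. For B cells, 6 of 6 markers had a count in thymic tuft cells, with a summed level of 34.6 to 59.2 CPM, against 1.41 to 3.38 CPM in SI tuft cells and 1.62 to 2.63 CPM in SI epithelium. Most of it was Cd79b (19.4 to 44.2 CPM), while Pax5, the factor that B cells require, had 3.46 to 8.79 CPM and Ms4a1 0 to 0.293 CPM in thymic tuft cells. For plasma cells the sum was 195 to 230 CPM in thymic tuft cells, 9.22 to 12.5 CPM in SI tuft cells and 20.9 to 25.4 CPM in SI epithelium. Irf4 (124 to 142 CPM) and Sdc1 (53.8 to 100.2 CPM) made up nearly all of it in thymic tuft cells, where Jchain and Mzb1, which define secreting plasma cells, reached at most 1.09 and 1.70 CPM and Tnfrsf17 had 0.379 to 2.35 CPM. Mzb1 shares 695 exon bases, at an exon length of 904, with a gene on the same strand, and Pax5 shares 636 with a gene on the opposite strand. Reads within those bases cannot be told apart, so the low level of Mzb1 says little.

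For myeloid and dendritic cells, which use Relb, 9 of 9 markers had a count in thymic tuft cells, with sums of 318 to 371 CPM, against 12.1 to 34.0 CPM in SI tuft cells and 18.1 to 22.8 CPM in SI epithelium. Of 8 tested, 6 were called higher and 1 lower in thymic than in SI tuft cells, where 28.5% of all genes tested were called higher and 23.1% lower. As 2 of the 8 had no count in SI tuft cells and passed the filter through other libraries, this count is no support of a direction. Lyz2 alone had 232 to 279 CPM in thymic tuft cells, Cd68 20.7 to 39.0 CPM and the macrophage receptor gene Csf1r 3.26 to 36.9 CPM. Csf1r shares 873 exon bases with Hmgxb3 on the opposite strand. Of the dendritic markers, Flt3 had 0.278 to 4.48 CPM and Xcr1 0 to 1.60 CPM in thymic tuft cells, and both had no count in SI tuft cells. Itgax, the marker called lower, averaged 0.0182 ± 0.0227 CPM in thymic tuft cells and 0.689 ± 0.781 CPM in SI tuft cells. T cell markers summed to 16.0 to 53.5 CPM in thymic tuft cells, 17.3 to 23.9 CPM in SI tuft cells and 2.49 to 5.63 CPM in SI epithelium. Of 9 T cell markers tested, 1 was called lower in thymic than in SI tuft cells and the other 8 did not pass the test. Against SI epithelium 5 were called higher, as were 28.6% of all genes tested. As 2 of the 9 had no count in SI epithelium, that count is no support of a direction. In thymic tuft cells the thymocyte gene Rag1 had 0.388 to 11.8 CPM and Cd4 2.48 to 12.9 CPM, against at most 0.257 and 0.948 CPM in SI tuft cells. The thymocyte gene Ptcra had no count in thymic tuft cells. Stromal markers summed to 17.9 to 78.1 CPM in thymic tuft cells, 2.41 to 3.67 CPM in SI tuft cells and 3.21 to 3.86 CPM in SI epithelium. Enterocyte and goblet markers summed to 1405, 1291, 1134 and 214 CPM in thymic tuft libraries 1 to 4, against 15641 to 22899 CPM in SI tuft cells and 75339 to 79616 CPM in SI epithelium. Thymic libraries 1 to 3, which share counts with SI epithelium at 0.876% to 0.948%, were the high ones, and library 4 stood apart below them. The genes behind that share were chosen for near absence from library 4, so this difference is no separate check of it. The part of blood, stromal and intestinal cells in the 4 genes' levels was not tested.

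The genes with the profile most like each regulator were found over the 10 libraries among 12731 genes, by the smallest root mean square difference of log2(CPM + 0.5) after centring and scaling to unit SD. For Aire these were Prokr2, Fezf2, Ccl11, Tfap2b and Slc9a7, with differences of 0.0307 to 0.0563. Fezf2 was closest to Prokr2, Serpinb2, Rptn, Krt17 and Slc9a7 (0.0375 to 0.0434), and Aire ranked 7th for it. Prokr2, a prokineticin receptor gene, averaged 221 ± 38.6 CPM in thymic tuft cells, 0.0107 ± 0.0185 CPM in SI tuft cells and 0.919 ± 0.225 CPM in SI epithelium. All these genes were high in the thymic libraries and near 0 in SI tuft cells. Prokr2 counts in SI epithelium libraries 1, 2 and 3 were 0.481%, 0.595% and 0.538% of the thymic partner, much as for Aire and Fezf2. The likeness of these profiles thus rests in part on shared counts.

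Relb and Prdm1 had looser neighbours. Relb was closest to Srcin1, Shisa4, Ing1, Cplane1 and Samsn1 (differences of 0.0814 to 0.149), and Prdm1 to Gdap2, Ift57, Lrrc56, Ttn and Lynx1 (0.215 to 0.252). Ing1, a chromatin reader gene, averaged 131 ± 21.4 CPM in thymic tuft cells, 24.7 ± 7.97 CPM in SI tuft cells and 24.1 ± 1.82 CPM in SI epithelium. Between the regulators themselves the difference was 0.0443 for Aire and Fezf2, 0.320 for Relb with either of them, and 0.487 for Relb and Prdm1.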

How the data were processed

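Gene counts of 10 libraries were deposited by the authors. Per the submitters' processing notes STAR, DESeq2 and the build GRCm38 were used, without versions, and per the labels' protocols poly(A) RNA was amplified with NuGen Ovation V2 and made into Nextera XT libraries, which mark no strand. All 10 libraries were assigned to groups by their titles, and each was a separate mouse per the labels. Counting intervals and floors (3 counts) cover counting error only. Of 43432 identifiers, 42462 had a symbol in GENCODE M21 and 970 had none.

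The deposited counts were fitted with edgeR 4.0.16 (quasi-likelihood test, a mean per group over all 10 libraries, TMM) in R 4.3.3. The filter (filterByExpr, minimum count 10, total 15) left 19281 genes. P-values were adjusted by the Benjamini-Hochberg method over these genes, with a threshold of 0.05. SE is the log2 fold change divided by the root of the F statistic. Genes of lists were described by counts of calls and medians, without a set test. Alternatives were DESeq2 1.42.0 size factors and Wald test, upper quartile scaling, no filter, 10 CPM in 3 libraries, fits of 2 groups, the replicate number as a block, subtraction of shared counts and removal of each library. Scaling by total counts only was added after seeing the data.

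Shared counts were estimated from genes with at least 2000 counts in thymic and at most 2 in SI tuft libraries, as the median ratio to the best-fitting partner. The reverse share used genes with a mean of at least 20000 counts in SI epithelium. These were also chosen to be low in SI tuft cells and nearly absent from thymic tuft library 4. Promoter windows were read from a RefSeq table that held 3 of the 4 genes. Pipelines were tested on simulated data. Figures were drawn with matplotlib 3.10.9.

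The 4 genes, the lists and the tests were chosen with earlier results of these data known. From each list up to 3 called genes each way per comparison were named, with the largest changes and at least 5 CPM in the higher group. Rela (a direct partner), Ins2, Ccl21a, Pou2f3, Psmb11, Ms4a1, Jchain, Mzb1, Itgax, Pax5, Tnfrsf17, Flt3, Xcr1, Rag1 and Ptcra fall outside that rule and were named after their values were seen. The level of 1 listed marker gene is not reported here.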

Additional observations from a re-analysis of the deposited data

Results flagged for a closer look

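Thymic tuft library 4 stood apart from the other thymic libraries for Aire, at 210 CPM (209.8) against 333 to 350 CPM in the others, a gap of 0.881 of the group's range, beyond Dixon's critical value for 4 samples. The gap was 0.804 for Fezf2, 0.498 for Relb and 0.517 for Prdm1, whose lowest library was library 3.

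Of 90 genes of the lists examined in the same way, 6 had a library beyond that value, and chance alone gives about 1 in 20. Thymic library 3 was high for Ccl25 (485 CPM), Cd3e (6.63 CPM) and Traf5 (73.4 CPM), library 1 was high for Col1a1 (20.9 CPM) and low for H2-Ab1 (2079.9 CPM), and library 4 was high for Tnfaip3 (341 CPM).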

How the results depend on the processing

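Over 12 results (4 genes in 3 comparisons) and 9 settings other than the removal of a library, 106 of 108 values kept their direction and their side of the threshold. The exceptions were Aire and Fezf2 in SI tuft cells over SI epithelium, which turned to 2.55 and 4.21 after subtraction of shared counts. Both turned values depend on the prior count and show no direction. With 1 library left out, 117 of 120 kept both. Prdm1 in SI tuft cells over SI epithelium, never called, ran from -0.51 to 0.35, with a sign change without SI epithelium 3, SI tuft 2 or SI tuft 3. In the same removals Prdm1 in thymic tuft cells ran from 1.47 to 2.25 over SI tuft cells and from 1.51 to 2.13 over SI epithelium (highest adjusted p = 0.0458), and Relb from 1.19 to 1.59 and from 1.70 to 1.96. Deviations of same-numbered libraries from their group means had correlations of -0.041 to 0.102. The highest was that of SI epithelium 2 and thymic tuft 2, which also share counts. With so few libraries per group, this cannot decide whether the numbers pair the samples. With the replicate block no call of the 4 genes changed, and Prdm1 in thymic tuft cells over SI epithelium had 1.58 (adjusted p = 0.0291).

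Counts over all genes moved more. In thymic over SI tuft cells, 5492 genes were higher and 4453 lower, against 8822 and 2003 with total counts only and 3289 higher with at least 10 CPM in 3 libraries. In SI tuft cells over SI epithelium, 2101 were higher and 2199 lower, against 3475 and 3513 in the fit of 2 groups and 1426 or 1432 lower without SI epithelium library 1 or 2. In thymic tuft cells over SI epithelium, 5514 were higher and 4297 lower, against 3536 higher with the 10 CPM filter and 2460 lower with total counts only. Depth limits the lowest levels: in SI tuft libraries 3 counts stand for 0.0482 to 0.0640 CPM, and Aire and Fezf2 rest on 0 to 8 counts per library there.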
